A study of Mus musculus with 4 samples.

Results

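Imprinted genes are transcribed mainly from 1 parental copy, and the 41 genes described here comprise the best-known imprinted loci of the mouse together with Zfp57, a zinc-finger protein that guards imprints. Members were every array probe whose gene name in the scanner files was one of these 41 symbols. Of the 41, 40 had a probe, through 73 probes in all, among 35923 gene names that could be measured. Rian, a maternally expressed non-coding RNA, had none and was not analysed here. The parental class is that of the copy known to be active in at least some tissues. By that class, 18 members are maternally expressed (17 on the array) and 21 paternally expressed (all on the array). Whether only that copy was active in these cells was not measured. Gnas gives transcripts of either kind and Zfp57 is not itself imprinted, so both are kept apart.

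At an imprinted domain, DNA methylation laid down in the egg or the sperm marks an imprinting control region, and that mark is copied at every cell division after fertilisation. Loss of the mark can raise some genes of a domain and lower others, depending on whether the methylated copy is the active or the silent one. Long non-coding RNAs such as Kcnq1ot1, H19 and Meg3 lie at the centre of several domains. ZFP57 binds methylated control regions and recruits TRIM28, which in turn draws in DNA and histone methyltransferases.

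RNA of E14Tg2A, a mouse embryonic stem (ES) cell line of strain 129/Ola, was hybridised to single-colour Agilent expression arrays. The groups were untreated ES cells at day 0 (ES), untreated epiblast-like aggregates after 2 days in a defined minimal medium (ELA, a model of primed pluripotency), ELA formed in 50 nM 5-azacytidine (AZA, a nucleoside analogue that blocks DNA methylation) and ELA formed in 100 µM 5-carboxy-8-hydroxyquinoline (CHQ, which blocks enzymes that remove methyl groups from histone lysines). The single array of each group carried RNA pooled over 3 experiments, so no p-value could be computed, and having 1 array per group is what limits precision. The ES cells were kept without feeder cells, all groups come from 1 inbred line, and the arrays measured total RNA of a gene and not the share of each parental copy.

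The ES and ELA arrays lay on 1 slide and the AZA and CHQ arrays on another. Treatment and slide therefore cannot be told apart where a treated array is set against ELA, whereas ELA against ES and CHQ against AZA lie within a slide. The same ELA array enters ELA against ES and both comparisons of a treated array with ELA, so these are linked. An error in that single array could make a gene seem higher in ELA and lower with both compounds, or the reverse. Between 55.1% and 69.2% of gene spots were well above background on an array, with a median local background of 59 and 77 on the first slide and 14 and 13 on the second. The spread of repeated spots gave a technical SD of 0.19 to 0.22 for a log2 difference, which covers spot noise only. Levels are log2 normalised intensities, and a gene with several probes is read at its brightest probe unless another is named. A gene is called higher or lower when the log2 difference is at least 1, the mean of both arrays at least 7.5, and the probe well above background on either array. In ELA all 10 measured markers of naive pluripotency were called lower than in ES (median difference -2.67). None of 5 general pluripotency genes was called, with 3 differences above 0 and 2 below. Pou5f1, among those below, stood at 14.95 in ES and 14.46 in ELA.

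Of the 40 measured members, 36 were well above background in ES, 35 in ELA, 39 under AZA and 40 under CHQ, and 33 were so on all 4 arrays. Over all gene spots the shares were 60.6%, 55.1%, 69.1% and 69.2% in the same order of arrays. Those shares count every spot, while a member counts at its brightest probe, so the measures are not alike. At least 1 comparison called 21 members, or 60.0% of the 35 considered in any, and 19 were called in none. Over all 20478 genes considered in any comparison the share was 36.4%. Those 21 comprised 10 maternally expressed and 9 paternally expressed members, Gnas and Zfp57.

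The promoters of members that moved together on the treated arrays are shown first. They come from RefSeq (build GRCm38.p6), in which 34 of the 41 members have a promoter entry. Dcn, Cdkn1c, Sgce, H19, Impact, Peg10 and Kcnq1 have none. Magel2, Ndn and Peg12 lie close together on chromosome 7 in the paternally expressed Snrpn domain and were lower with AZA. The 250 bases before each start site read, 5′ to 3′ on the gene's strand and with every CG pair in capitals:
Magel2 (chr7:62376729-62376978, plus strand): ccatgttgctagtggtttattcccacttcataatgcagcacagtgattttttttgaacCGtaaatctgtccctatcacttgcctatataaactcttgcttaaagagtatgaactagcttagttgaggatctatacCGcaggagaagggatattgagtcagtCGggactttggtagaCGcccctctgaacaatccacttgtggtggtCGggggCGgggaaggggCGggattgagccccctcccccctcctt
Ndn (chr7:62348027-62348276, plus strand): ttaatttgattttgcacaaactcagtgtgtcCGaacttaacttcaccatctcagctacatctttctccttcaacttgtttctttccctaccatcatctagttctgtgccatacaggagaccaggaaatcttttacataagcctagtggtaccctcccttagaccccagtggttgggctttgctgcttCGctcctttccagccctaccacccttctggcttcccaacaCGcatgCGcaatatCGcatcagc
Peg12 (chr7:62464511-62464760, minus strand): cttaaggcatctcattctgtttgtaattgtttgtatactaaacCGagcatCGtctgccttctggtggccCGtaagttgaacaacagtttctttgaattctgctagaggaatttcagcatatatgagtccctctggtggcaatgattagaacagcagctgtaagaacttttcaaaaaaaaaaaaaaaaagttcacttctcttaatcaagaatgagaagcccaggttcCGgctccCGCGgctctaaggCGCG

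Ascl2, Cd81 and Slc22a18 lie further along chromosome 7 in the Kcnq1ot1 domain, whose protein-coding members are classed as maternally expressed. The named genes were higher with either compound:
Ascl2 (chr7:142969265-142969514, minus strand): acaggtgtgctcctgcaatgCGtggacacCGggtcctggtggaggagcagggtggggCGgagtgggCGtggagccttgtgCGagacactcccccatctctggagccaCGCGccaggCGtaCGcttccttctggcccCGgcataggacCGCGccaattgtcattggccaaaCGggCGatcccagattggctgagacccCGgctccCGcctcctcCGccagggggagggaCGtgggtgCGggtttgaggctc
Cd81 (chr7:143052500-143052749, plus strand): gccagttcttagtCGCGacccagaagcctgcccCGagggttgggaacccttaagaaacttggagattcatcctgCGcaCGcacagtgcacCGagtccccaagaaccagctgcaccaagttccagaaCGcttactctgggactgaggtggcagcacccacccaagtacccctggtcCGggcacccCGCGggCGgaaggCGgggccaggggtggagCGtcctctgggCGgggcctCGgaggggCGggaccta
Slc22a18 (chr7:143473539-143473788, plus strand): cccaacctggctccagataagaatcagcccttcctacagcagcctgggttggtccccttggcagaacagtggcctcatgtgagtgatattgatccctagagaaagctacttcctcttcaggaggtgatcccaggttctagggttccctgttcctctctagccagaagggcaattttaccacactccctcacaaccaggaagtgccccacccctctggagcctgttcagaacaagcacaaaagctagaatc

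These windows hold 7 CG pairs for Magel2, 5 for Ndn and 8 for Peg12, against 19 for Ascl2, 16 for Cd81 and 0 for Slc22a18. Genes that moved the same way thus had promoters with many and with no CG pair. Over windows of 300 bases, from 250 before to 50 after the start, the 53 promoters of the 34 members held a median of 14 CG pairs, and all 32851 promoters of the table a median of 7.0. TGCCGC, the hexamer known as the core of the ZFP57 binding motif, was searched on both strands (TGCCGC or GCGGCA). It occurred in 24.53% of the members' promoters and 11.61% of all promoters. Within the Snrpn domain and within the Kcnq1ot1 domain the share was 11.11%. The match is a description of letters only. Among the called members with a match was Plagl1, whose CG-rich window carries the reverse form, here in capitals:
Plagl1 (chr10:13090582-13090831, plus strand): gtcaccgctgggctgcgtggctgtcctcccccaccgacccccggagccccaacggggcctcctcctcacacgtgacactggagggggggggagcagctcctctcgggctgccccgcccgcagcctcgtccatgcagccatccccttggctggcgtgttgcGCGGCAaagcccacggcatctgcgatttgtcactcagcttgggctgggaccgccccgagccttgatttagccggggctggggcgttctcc

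**Figure D1:**
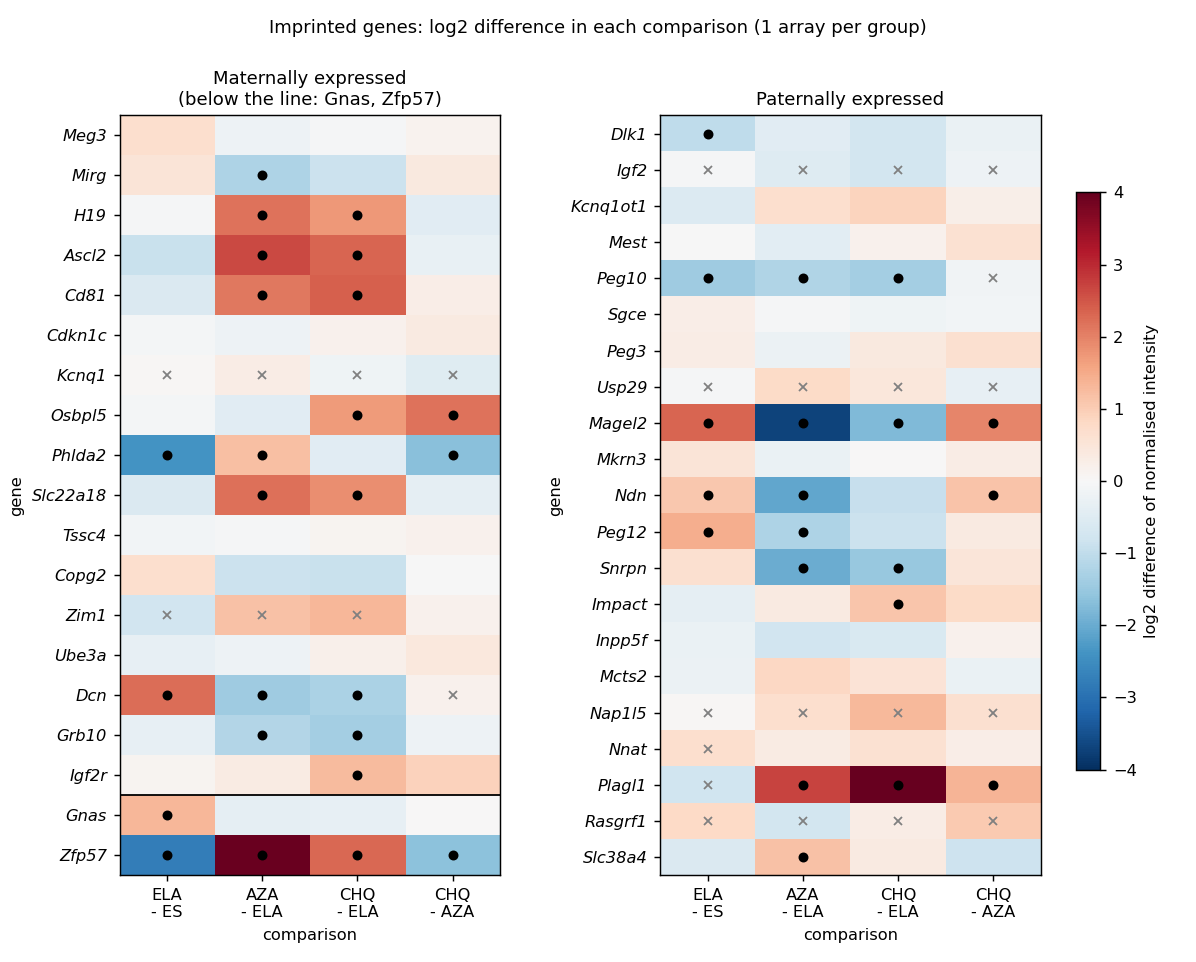
Colour gives the log2 difference of each measured member (rows) in each comparison (columns). It runs from blue (lower) to red (higher) and is held at 4 in either direction. Black dots mark called differences, and grey crosses mark genes too dim to be considered. In the AZA column, Ascl2, Cd81 and Slc22a18 are red and Magel2, Ndn and Snrpn are blue. Rows of the same domains without an AZA call lie among them, such as Cdkn1c, Osbpl5 and Mkrn3.

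From ES to ELA, the medians of both parental classes lay near that of all genes, and 9 members were called, among them Zfp57, Phlda2, Magel2 and Dcn. Of 32 members bright enough to be considered, 5 were called higher and 4 lower, or 28.1%. Over all 18896 genes considered, 10.0% were called in this comparison, 4.46% higher and 5.59% lower. Among 15 maternally expressed members 1 was higher and 1 lower, with a median difference of -0.091. Among 15 paternally expressed members 3 were higher and 2 lower, with a median of -0.0043, and the median of all genes was -0.018. With spike-in scaling the call split was 2 higher and 10 lower, since that setting moved the median of all genes to -0.58.

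The paternally expressed Snrpn domain held the 3 paternally expressed genes called higher in ELA. Magel2, a MAGE-family cofactor of a ubiquitin ligase (probe at chr7:69526370-69526429, build mm9), had log2 levels of 10.96 in ES, 13.28 in ELA, 9.58 under AZA and 11.52 under CHQ. Its level in ELA was 5.00-fold that in ES, and it was the highest of the 4 arrays. Ndn, which encodes the MAGE protein necdin (chr7:69493847-69493906), stood at 9.52 in ES, 10.60 in ELA, 8.53 under AZA and 9.68 under CHQ. Peg12, a member of the Frat family of GSK3-binding proteins (chr7:69607011-69607070), stood at 7.62, 9.07, 7.86 and 8.22 in the same order. Like Magel2, both were at their highest in ELA, by 2.11-fold over ES for Ndn and 2.74-fold for Peg12. With spike-in scaling Ndn and Peg12 no longer passed the size rule, while Magel2 did. The call of Peg12 was also lost with the mean over its probes (0.84). Its second, dim probe (6.89 in ES and 7.11 in ELA) differed by only 0.22.

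Peg10 and Dlk1 were the paternally expressed genes called lower in ELA. Peg10, a retrotransposon-derived gene needed in the placenta, had log2 levels of 10.19 in ES, 8.78 in ELA, 7.57 under AZA and 7.43 under CHQ, so that it was below ES on each of the other arrays. Its second probe differed in the same direction in every comparison with ES or ELA. Dlk1, a transmembrane protein of the Delta family, stood at 10.50, 9.49, 9.02 and 8.77, and its difference of -1.01 between ELA and ES lay at the size rule and no longer passed it with the mean over its probes (-0.78).

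In the maternal class, Phlda2 and Dcn were called. Phlda2, which restrains growth of the placenta, had log2 levels of 11.71 in ES, 9.33 in ELA, 10.53 under AZA and 8.87 under CHQ (chr7:150687464-150687523). It was 5.22-fold lower in ELA than in ES. Dcn, which encodes the matrix proteoglycan decorin, was not well above background in ES (6.54) and stood at 8.78 in ELA, 7.35 with AZA and 7.52 with CHQ. Its level in ELA was at least 4.73-fold that in ES, a bound that uses its own ES value. Decorin is also a fibroblast product, and the 6 fibroblast markers gave a log2 summed intensity of 12.40 in ES, 13.72 in ELA, 12.96 under AZA and 11.67 under CHQ, with Postn and Lum not well above background on any array. Most of that sum was Thy1 (12.08, 13.58, 12.78 and 11.27), while Col1a1 was lower in ELA than in ES by an uncalled -0.90 and was called higher with AZA (1.303). Thy1 was called higher in ELA than in ES (1.503) and lower with CHQ (-2.31). Col1a2 stood at 8.73, 9.56, 7.69 and 7.57, with an uncalled 0.84 in ELA, and its treated levels were both called lower, by -1.87 under AZA and -2.00 under CHQ. The part of such cells in the Dcn values was not tested.

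Gnas, the stimulatory G protein alpha subunit, was read at the most 3′ of its 4 probes and stood at 14.15 in ES, 15.49 in ELA, 15.14 under AZA and 15.16 under CHQ. It was 2.54-fold higher in ELA than in ES, a call that was lost with spike-in scaling and with the mean over its probes, where the log2 difference was lowest (0.54). Of its 3 further probes, those with signal on all arrays stood at 10.02 and 10.48 and at 7.47 and 7.84 in ES and ELA, smaller differences of the same sign. In the Kcnq1ot1 domain, Phlda2 was the 1 member called lower of 8 considered, and none was higher. The median over these 8, which include the paternally expressed Kcnq1ot1, was -0.55. With spike-in scaling 5 of the 8 were called lower and the median was -1.10. Without that scaling Osbpl5, Cdkn1c and Tssc4 differed by only -0.08, -0.09 and -0.12.

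With AZA, members were called in both directions in equal number, Zfp57 being among the higher. Called genes of the Snrpn domain were paternally expressed and lower, and those of the Kcnq1ot1 domain maternally expressed and higher. Of 34 members considered, 8 were called higher and 8 lower than in ELA, or 47.1%. Over all 19106 genes, 25.6% were called, 14.2% higher and 11.4% lower. Scaling to the 75th percentile of the processed signal gave 8 higher and 9 lower members, and over all genes 2941 higher and 2984 lower. Of 15 maternally expressed members, 5 were higher and 3 lower, with a median of -0.20. Of 17 paternally expressed members, 2 were higher and 5 lower, with a median of -0.27. The median of all genes was -0.073. Treatment and slide cannot be told apart in these counts.

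In the Snrpn domain 4 of 6 members considered were called lower with AZA and none higher, with a median of -1.60. Magel2 was 13-fold lower than in ELA and Ndn 4.20-fold lower, and both were also below their level in ES. Snrpn itself, a core protein of spliceosomal particles, had log2 levels of 14.05 in ES, 14.70 in ELA, 12.72 under AZA and 13.19 under CHQ (chr7:67132330-67132389). It was 3.93-fold lower with AZA, and the AZA array was the lowest of the 4. Its 3 probes span 12.9 kb, and those at the 3′ and the 5′ end gave AZA differences of -1.77 and -2.12. Peg12 was 2.33-fold lower, although its second, dimmer probe differed by only -0.15 and the mean over both (-0.69) was not called. Mkrn3, a ring-finger protein of the same domain, and Ube3a, the maternally expressed ubiquitin ligase of the domain, were not called, with differences of -0.27 and -0.21, and the second probe of Mkrn3 had the opposite sign (0.057).

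Genes of the Kcnq1ot1 domain were higher with AZA in 4 of 8 members considered and called lower in none, with a median of 0.93. Ascl2, a transcription factor of placental progenitors, had log2 levels of 11.88 in ES, 11.00 in ELA, 13.63 under AZA and 13.34 under CHQ (chr7:150152734-150152793). Cd81, a tetraspanin of the cell surface, stood at 15.33, 14.75, 16.86 and 17.13 (chr7:150253737-150253796). Slc22a18, an organic-cation transporter, stood at 10.29, 9.73, 11.95 and 11.59 (chr7:150685176-150685235). All 3 were above both their ES and their ELA level on each treated array, by 6.22-fold, 4.30-fold and 4.65-fold over ELA with AZA. Phlda2 was 2.31-fold above ELA with AZA yet remained below its level in ES. Kcnq1ot1, the paternally expressed non-coding RNA that silences the domain in cis, stood at 10.71 in ES, 10.18 in ELA, 10.84 under AZA and 11.07 under CHQ and was called in no comparison. Cdkn1c, a cyclin-dependent kinase inhibitor, differed by -0.21 with AZA, and Tssc4 by -0.05. Kcnq1, a potassium channel subunit, was too dim to be considered.

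**Figure D2:**
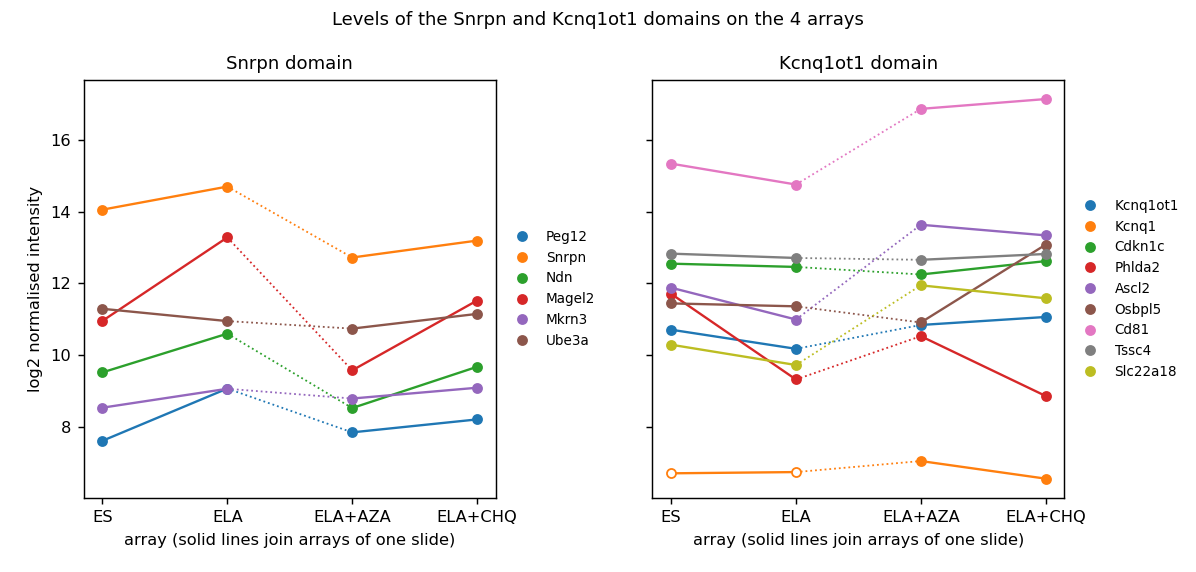
Log2 normalised intensity (y axis) of each member of the Snrpn and Kcnq1ot1 domains on the 4 arrays (x axis), 1 array per group, with open circles where a probe was not well above background and dotted lines where the slide changes. Magel2 goes from 13.28 in ELA to 9.58 with AZA, while Ascl2 goes from 11.00 to 13.63.

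H19 and Plagl1, outside these domains, were also called higher with AZA, and in each the probes disagreed. H19, a maternally expressed non-coding RNA that RefSeq shows to host 1 microRNA hairpin, was measured by 7 probes. The brightest, nearest its 3′ end, stood at 8.07 in ES, 8.01 in ELA, 10.19 under AZA and 9.75 under CHQ, 4.52-fold and 3.32-fold above ELA. A probe 0.201 kb upstream differed by 1.33 and 1.26, whereas the 5 others ranged from -0.49 to 0.72 with AZA. Of these, the probes 0.621, 0.681 and 0.925 kb upstream were not well above background in ELA (7.18, 6.30 and 6.68). Those 0.264 and 0.465 kb upstream were (7.82 and 7.43), and differed by 0.54 and -0.49 with AZA. The mean over all probes, dim ones included, ended both calls (0.57 and 0.44). Igf2, the paternally expressed growth factor beside H19, was dim, at 7.52, 7.46, 6.94 and 6.73 on the 4 arrays, and could not be considered under the size rule.

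Plagl1, a paternally expressed zinc-finger transcription factor, was measured by 4 probes. The brightest had log2 levels of 7.53 in ES, 9.42 with AZA and 10.78 with CHQ, and was not well above background in ELA (6.73). At that probe the level was at least 6.40-fold higher with AZA than in ELA and at least 16.5-fold higher with CHQ. A neighbouring probe, also not well above background in ELA, differed by 2.66 and 3.92. The probes 2.43 and 2.86 kb upstream were well above background in ELA, stood between 7.32 and 7.96 on every array and differed by -0.39 and -0.21 with AZA, so the higher level was seen at the 3′ probes alone.

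The remaining AZA calls were single genes. Slc38a4, a paternally expressed amino acid transporter, stood at 12.61 in ES, 12.04 in ELA, 13.21 under AZA and 12.39 under CHQ, 2.24-fold above ELA with AZA. Grb10, an adaptor that restrains insulin and IGF receptor signalling, stood at 10.32, 10.00, 8.83 and 8.64 and was 2.24-fold lower than ELA with AZA. Peg10 was 2.31-fold lower and Dcn 2.69-fold lower than in ELA. Mirg, a maternally expressed non-coding RNA of the Dlk1-Meg3 domain, stood at 14.41, 14.92, 13.69 and 14.07, and its second probe gave -1.502 with AZA. In RefSeq, 10 microRNA hairpins lie within Mirg, and none of the microRNAs themselves was measured.

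Meg3, the non-coding RNA at the centre of the same domain, was not called at its brightest probe, with levels of 15.28 in ES, 15.93 in ELA, 15.74 under AZA and 15.89 under CHQ. Probes 10.1 and 26.9 kb upstream were however lower with AZA, by differences of -1.51 and -1.65, and with CHQ, by -1.42 and -1.10. The mean over the Meg3 probes was -1.12 with AZA, which passed the size rule. The probes of Mest, a hydrolase-fold protein, disagreed in the same way, with -0.43 at the 3′ side and -1.34 at the 5′ side with AZA. Peg3, a zinc-finger protein, gave -0.24 and -1.44. Over 3397 genes of the array with several probes, the probe nearest the 3′ end exceeded the 5′ one by a median of 0.22 in the AZA comparison and 0.36 in the CHQ comparison, against 0.051 between ELA and ES and 0.075 between CHQ and AZA. In the 11 members with such probes the medians were 0.27, 0.53, 0.17 and 0.11 in that order. Of 17 members with several probes above background, all probes had 1 sign in 16 between ELA and ES, in 13 with AZA and in 13 with CHQ. The part of this shift along the transcript in the members' calls was not tested.

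**Figure D3:**
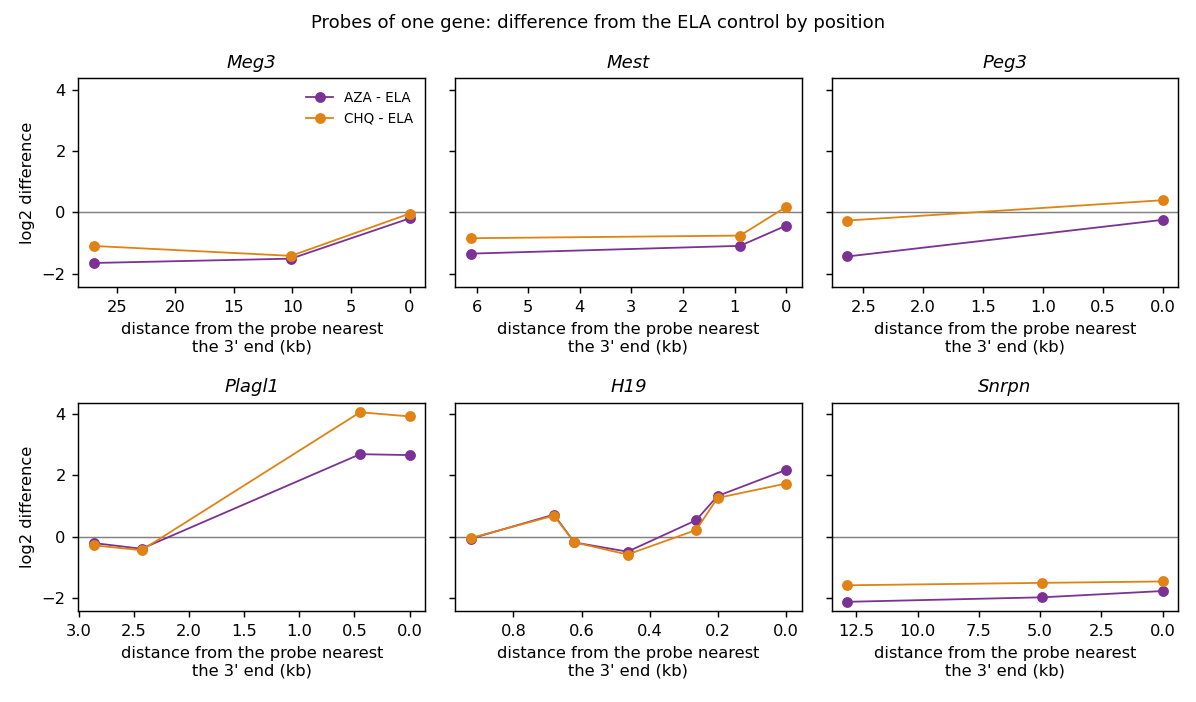
Log2 difference of AZA (purple) and CHQ (orange) from ELA (y axis) for each probe of 6 imprinted genes, by distance in kb from the probe nearest the 3′ end (x axis, 3′ end to the right). Snrpn is level near -2 and -1.5 along its length, whereas Plagl1 and Meg3 change with position.

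With CHQ, members were called higher more often than lower. Of 34 members considered, 9 were higher and 5 lower than in ELA, or 41.2%. Over all 19113 genes, 26.6% were called, 14.8% higher and 11.9% lower. Scaling to the 75th percentile of the processed signal gave 8 higher and 7 lower members, and over all genes 2937 higher and 3682 lower in place of 2820 and 2269. Of 15 maternally expressed members, 6 were higher and 2 lower, with a median of 0.16, and of 17 paternally expressed members 2 were higher and 3 lower, with a median of 0.029. With spike-in scaling these medians were -0.0012 and -0.093. The median of all genes was -0.087. As with AZA, the slide cannot be told apart from the compound.

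Ascl2, Cd81 and Slc22a18 were again above ELA, by 5.07-fold, 5.20-fold and 3.62-fold. Osbpl5, an oxysterol-binding protein at the edge of the Kcnq1ot1 domain (chr7:150874667-150874726), was higher with CHQ alone, with log2 levels of 11.44 in ES, 11.36 in ELA, 10.91 under AZA and 13.08 under CHQ, 3.29-fold above ELA. Igf2r, the receptor that clears IGF2, stood at 12.06, 12.17, 12.49 and 13.42 and was 2.39-fold above ELA. Impact, a translational regulator, stood at 14.63, 14.27, 14.62 and 15.38, 2.17-fold above ELA, but its second probe differed by only 0.13. Scaling to the 75th percentile or to spike-ins and averaging its probes each ended the call, the last with the lowest log2 difference (0.62). In the Snrpn domain the calls with CHQ were Magel2, 3.38-fold lower, and Snrpn, 2.84-fold lower. Ndn and Peg12 differed by -0.92 and -0.86 and were not called. Peg10 was 2.55-fold lower, a call lost with the mean over its probes (-0.98), Grb10 2.56-fold lower and Dcn 2.39-fold lower.

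The AZA and CHQ arrays shared a slide. Of 33 members considered, 4 were higher with CHQ and 2 lower, or 18.2%. Over all 19145 genes, 10.3% were called, 5.53% higher and 4.81% lower. Among 15 maternally expressed members 1 was higher and 1 lower, with a median of 0.16. Among 16 paternally expressed members 3 were higher and none lower, with a median of 0.33. The all-gene median was -0.025. With spike-in scaling the all-gene median was -0.16 and the maternal and paternal medians were -0.029 and 0.27.

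Magel2 and Ndn, the genes of the Snrpn domain furthest below ELA with AZA, were 3.85-fold and 2.22-fold higher with CHQ than with AZA. These were the 2 members called of 6 considered in the domain. The other 4 differed by 0.30 to 0.47. The second probe of Peg12, dim on both arrays (6.96 with AZA and 6.89 with CHQ), differed by -0.077, which is within the technical SD. Plagl1 was 2.58-fold higher with CHQ at its brightest probe, a call lost with the mean over its probes (0.63). Osbpl5 was 4.49-fold higher with CHQ, and Phlda2 3.17-fold lower. Phlda2 thus ended below its ELA level with CHQ (-0.46) and above it with AZA. Zfp57 was the other lower call.

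**Figure D4:**
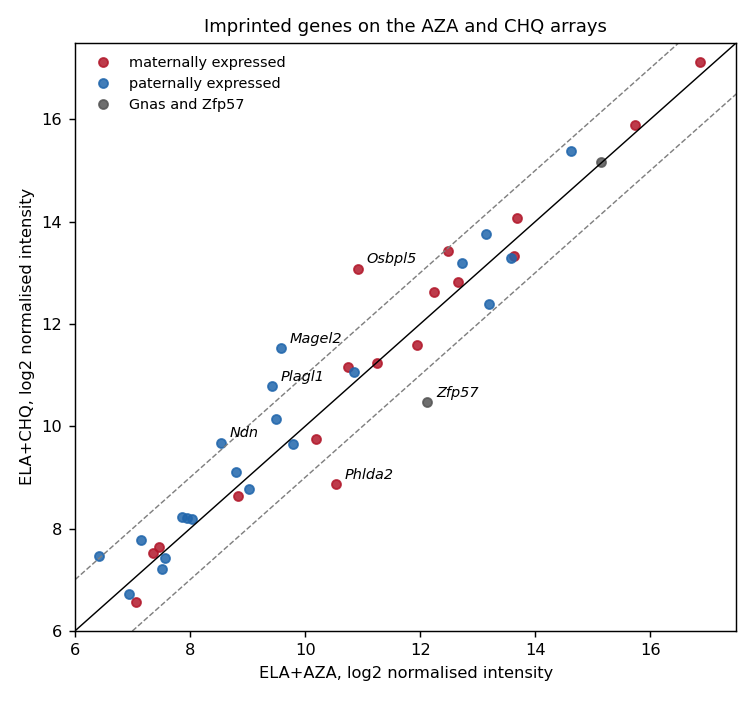
Each point is 1 member, with its log2 normalised intensity on the AZA array (x axis) against the CHQ array (y axis). Maternally expressed genes are red and paternally expressed genes blue, with a solid line of equality and dashed lines 1 log2 unit away. The named genes are the 6 called, 4 above the lines and 2 below. Zfp57, among those below, is in neither parental class.

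Zfp57 was called in each of the 4 comparisons at its brighter probe. There (chr17:37147440-37147499) its log2 level was 10.92 in ES, 8.17 in ELA, 12.12 under AZA and 10.47 under CHQ. It was 6.74-fold lower in ELA than in ES, 15.5-fold higher with AZA than in ELA, 4.94-fold higher with CHQ than in ELA and 3.14-fold lower with CHQ than with AZA. A second probe directly 3′ of it stood at 9.92, 9.40, 10.37 and 9.14. It showed the same order of ES, ELA and AZA with smaller differences (-0.52 for ELA against ES and 0.97 for AZA against ELA), but placed CHQ below ELA, at -0.26. The sign for AZA and for CHQ against AZA therefore held in both probes and that for CHQ against ELA did not.

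The remaining members were called in no comparison when read at the brightest probe. These were Meg3, Mkrn3, Ube3a, Mest, Copg2, Kcnq1ot1, Kcnq1, Cdkn1c, Tssc4, Nnat, Sgce, Usp29, Zim1, Nap1l5, Mcts2, Inpp5f, Rasgrf1, Igf2 and Peg3. Copg2, a coat protein subunit that lies tail to tail with Mest, stood at 11.45 in ES, 12.12 in ELA, 11.25 under AZA and 11.24 under CHQ. Nap1l5, a nucleosome assembly protein, and Zim1, a zinc-finger protein, were not well above background in ELA but were so on both treated arrays. Their AZA and CHQ levels were 7.14 and 7.78 for Nap1l5 and 7.46 and 7.63 for Zim1. In ES, Zim1 was also well above background (7.06) and Nap1l5 was not (6.43). Both treated arrays lay on the slide with the lower local background, so treatment and slide cannot be told apart here. Rasgrf1, a Ras exchange factor, was measurable in ELA (7.16) and with CHQ (7.45) but not with AZA (6.41) or in ES (6.35). Its second probe was well above background in ELA alone (7.41) and stood at 6.31 with CHQ, so that the probes disagreed in sign for CHQ against ELA. Nap1l5, Rasgrf1, Kcnq1, Usp29 and Igf2 were too dim to be considered in any comparison. Mcts2, a retrotransposed gene, stood at 12.98 in ES, 12.75 in ELA, 13.58 under AZA and 13.30 under CHQ, with an AZA difference of 0.83. Inpp5f, an inositol phosphatase, stood at 9.07, 8.80, 8.03 and 8.19, and Sgce, a sarcoglycan transcribed away from Peg10, at 9.57, 9.83, 9.78 and 9.66. Nnat, a membrane proteolipid, stood at 6.96, 7.61, 7.94 and 8.21.

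Members of the machinery that keeps imprints were measured alongside, as a list of 16 genes that includes Zfp57. Between ES and ELA 2 were higher and 5 lower, with AZA 4 higher and 2 lower than in ELA, and with CHQ 4 higher and 4 lower. These are 43.8%, 37.5% and 50.0% of the list, against 10.0%, 25.6% and 26.6% of all genes. Between CHQ and AZA none was higher and 2 were lower, or 12.5% against 10.3% of all genes. Dnmt1, the maintenance methyltransferase, stood at 11.86 in ES, 11.93 in ELA, 11.82 under AZA and 11.81 under CHQ, and Uhrf1, which guides it to replicated DNA, at 15.49, 15.49, 15.10 and 14.78. Trim28 and Zfp445, the partner and a relative of ZFP57, were called in no comparison. The de novo methyltransferases Dnmt3a and Dnmt3b were both called higher in ELA than in ES (1.51 and 1.05) and lower than ELA on each treated array. Their cofactor Dnmt3l went the opposite way, at 15.96, 13.22, 16.33 and 15.38. Tet1 and Tet2, which oxidise methylated cytosine, were below ES in ELA (-1.29 and -3.02) and above ELA with AZA (1.04 and 2.63) and CHQ (1.61 and 2.50). Dppa3, which protects maternal methylation in the zygote, stood at 12.37, 10.43, 9.97 and 6.995, so that the CHQ array was the lowest and the AZA array lay near ELA.

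Further imprinted genes outside the member list were also called in both directions. Of 29 such genes, 22 were considered with AZA, of which 4 were higher and 6 lower with a median of -0.55, and 21 with CHQ, of which 4 were higher and 3 lower with a median of -0.30. These are 45.5% and 33.3% of the genes considered, against 25.6% and 26.6% of all genes. Calcr, the calcitonin receptor gene near Peg10, stood at 10.55 in ES, 12.02 in ELA, 6.91 under AZA and 9.75 under CHQ. Tspan32, a tetraspanin gene beside Cd81 and Ascl2, stood at 8.46, 7.61, 10.42 and 9.40. Zfp264, a zinc-finger gene of the Peg3 domain, was not well above background in ES (6.67) or ELA (6.02) but stood at 10.08 with AZA and 8.61 with CHQ. For scale, 17 germline genes that DNA methylation is known to silence were measured in the same way. Among the 14 considered against ELA, 9 calls were upward and 2 downward under AZA, with a median of 1.88. Under CHQ, 9 calls were upward and 1 downward, with a median of 1.85. These are 78.6% and 71.4% of the genes considered, beside the all-gene shares of 25.6% and 26.6%. The lower calls were Ddx4 and Sycp3 with AZA (-1.21 and -1.08) and Sycp3 with CHQ (-1.39). In ELA against ES, 1 of 13 germline genes considered was higher and 6 were lower, with a median of -0.94. That is 53.8% of those considered, against 10.0% of all genes. Hormad1, a meiotic chromosome-axis protein, stood at 8.47, 7.04, 11.46 and 10.54.

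Cell state and marker levels moved with the same arrays and are given here as values. Over all genes, 10.0% were called between ELA and ES, 25.6% with AZA, 26.6% with CHQ and 10.3% between CHQ and AZA. Naive pluripotency markers were above ELA with AZA (10 of 10 called, median 3.81) and with CHQ (9 of 10, median 2.49), and were lower with CHQ than with AZA in 5. Of 5 general pluripotency genes, Lin28a and Sall4 were called lower than ELA, by -1.57 and -1.16 with AZA and -2.29 and -1.75 with CHQ. Of 5 primed pluripotency markers, 2 were called higher in ELA than in ES, 3 lower with AZA than in ELA and 2 lower with CHQ. Between CHQ and AZA 2 of the 5 were higher (Fgf5, 1.39, and Pou3f1, 1.84). Fgf5 differed by 2.86 for ELA against ES, and by -2.54 with AZA and -1.15 with CHQ against ELA. Of the early neural markers, 1 of 4 considered was higher in ELA than in ES, and 2 of 3 were lower than in ELA with AZA and 2 of 3 with CHQ. The lower calls were Zic1 (-1.66 and -1.28) and Nes (-1.67 and -1.24). Zic1 was the higher call in ELA (1.60), where Nes differed by 0.85 and was not called. Trophoblast markers, relevant to Ascl2, Phlda2 and Peg10, had a log2 summed intensity of 11.04 in ES, 10.36 in ELA, 11.01 under AZA and 11.09 under CHQ, with 1 of 3 considered called higher with AZA (Tead4, 1.73) and 1 of 3 with CHQ (Krt7, 1.31). Tead4 was also the 1 called lower in ELA than in ES (-1.78). Cdx2 and Elf5 lay between 5.90 and 6.85, and Hand1, not well above background in ELA, stood at 7.56 and 7.87 on the treated arrays. Primitive endoderm markers were called 0 higher and 2 lower of 4 considered with AZA, and 2 higher and 2 lower of 6 with CHQ. Gata6 and Sox17 were the higher calls (3.20 and 2.74), while Foxa2 and Dab2 were lower with AZA (-1.81 and -1.47) and with CHQ (-1.01 and -1.34). Between CHQ and AZA, Gata6 and Sox17 were the 2 called of 4 considered, both higher (1.83 and 1.75). The part of cell state or cell makeup in the imprinted genes' values was not tested, and in a bulk sample more cells of a type and more RNA per cell cannot be told apart.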

How the data were processed

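Cy3-labelled RNA of 4 groups was read on 1 Agilent array each. The deposited scanner files hold spot intensity and local background, which the authors extracted with Feature Extraction 10.7.3.1 per the file headers (their processing notes name 9.1) and did not normalise between arrays. Log2 values of the same arrays, which the authors made with limma (background correction, then quantile normalisation), were also deposited. Probes are 60 nucleotides long, with mm9 coordinates from the files; exons and UTRs of that build were not used here.

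From the scanner files, mean intensity was corrected with normexp (offset 50) and quantile-normalised over 4 arrays in limma 3.58.1, R 4.3.3. Control and outlier-flagged spots were removed, and 559 of 55681 probes without a usable spot on every array were left out. No spot was saturated. A gene was read at the probe with the highest mean. The size rule follows the study's methods, whose p-value could not be had with 1 array per group. Bounds use the higher of 2 values on the dimmer array, the lowest signal well above background and the gene's own level. Spread between cultures is unknown, since RNA was pooled. All members were accounted for, and those called in at least 1 comparison were given on each array. From the other lists, up to 5 called genes, or any imprint maintenance gene, could be named. A few uncalled marker genes were named as well. The members, lists and rules were chosen with earlier results of these data known. Alternatives changed the background correction, scaling, filter, probe choice and size rule. Another array of the series, with a chromatin remodeller knocked down, was not analysed here.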

Additional observations from a re-analysis of the deposited data

How the results depend on the processing

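No replicate existed to leave out, and no paired analysis was possible because each group had 1 array. The number of member calls kept within 1.5 times its main value under every scaling and filter tried, except under a size rule of 1.5 log2, which left 4 calls between ELA and ES, 9 with AZA and 9 with CHQ. Calls were kept in every setting by 2 of 9 members between ELA and ES (Magel2 and Phlda2), by 6 of 16 with AZA (Snrpn, Ndn, Magel2, Ascl2, Cd81 and Slc22a18), by 6 of 14 with CHQ (Snrpn, Magel2, Ascl2, Osbpl5, Cd81 and Slc22a18) and by 4 of 6 between CHQ and AZA (Magel2, Phlda2, Osbpl5 and Zfp57). Scaling to spike-in probes moved the ELA minus ES median to -0.74 for maternally and -0.72 for paternally expressed members, and that of all genes to -0.58, with 295 genes higher and 3514 lower in place of 843 and 1056. The same scaling moved the all-gene median to -0.21 with AZA and -0.34 with CHQ, where 2226 genes were higher and 3796 lower, and the 75th-percentile scaling moved it to -0.20 and -0.25. Averaging over the probes of a gene moved the AZA median of the paternally expressed members to -0.66. Reading each gene at the probe nearest its 3′ end, chosen after seeing the data, turned Zfp57 in CHQ against ELA to -0.26. The cause was not tested. A search by accession added 0 probes. Dim signal left Igf2, Kcnq1, Usp29, Nap1l5 and Rasgrf1 outside every comparison.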
